A study of Mus musculus with 11 samples.

Results

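Zfp949 is a mouse zinc finger gene on chromosome 9, and its transcripts were followed through the inguinal mammary glands of mice in which Tsc1 was deleted in fat cells. It is 1 gene of the 22196 to which reads could be assigned, and 3 of the 58204 transcripts in the quantification tables belong to it. The gene was chosen by measured values of these libraries, its higher read count in knockout glands and the change of that difference when transcript length was taken into account, so its values between genotypes are given as a description and no test is applied to them.

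All 11 mice carried Tsc1 alleles that the recombinase Cre can delete (Tsc1-fl/fl). The 6 Knockout mice also carried 1 copy of a Cre transgene under the promoter of Adipoq, an adipocyte gene (Adipoq-Cre-Tg/+), and the 5 Wild-Type mice had no transgene (Adipoq-Cre-+/+). Both groups ate normal chow. The age label is PND16.5 in both, and glands were taken 16 days after delivery. The gland is a mixture of cells, most of which the transgene does not target, so a higher level in bulk RNA may come from more cells of a type or from more RNA per cell, and these cannot be told apart. Labels name separate samples but not separate litters or dates, so the spread between libraries may be partly technical.

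Zinc finger genes of this kind encode proteins that bind DNA through repeated C2H2 fingers, each holding a zinc ion between a pair of cysteines and a pair of histidines. Many of them begin with a KRAB domain, which recruits the corepressor TRIM28 and, through it, enzymes that make chromatin silent. In mouse genes of this family the KRAB domain and the fingers usually lie in different exons, so that a transcript that ends early can keep the KRAB part and lack the fingers. Zfp949 is also known as Nczf, a KRAB zinc finger gene.

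Zfp949 (ENSMUSG00000032425) lies at chr9:88548020-88571061 on the plus strand (GRCm38, GENCODE release M21). The annotation gives it 5 transcripts. The transcript ENSMUST00000162827, here the long transcript, has 6 exons and a coding sequence of 1812 bases for a protein of 603 amino acids. ENSMUST00000161458 differs from it only in its noncoding first exons, and its coding sequence is identical. The transcript ENSMUST00000160652, here the short transcript, has 5 exons, ends at position 88567286 and is flagged in the annotation as having an incomplete coding end. Its coding part is 143 bases long. ENSMUST00000161232 keeps only 10 coding bases, and ENSMUST00000162985 is annotated as a retained intron with no coding sequence. The quantification tables list the long and the short transcript and ENSMUST00000161232, with listed lengths of 1812, 143 and 10 bases, so that each entry is the coding sequence alone and noncoding exons take no part.

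**Figure D1:**
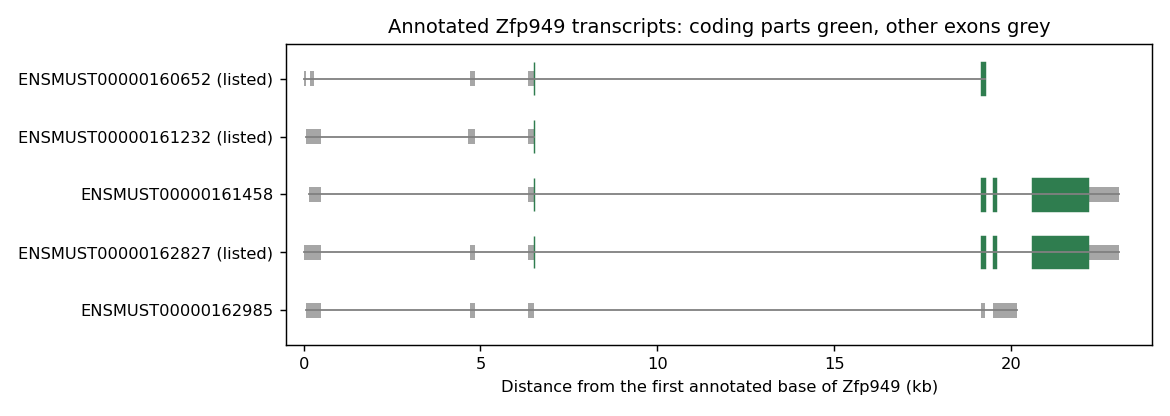
Exons of the 5 annotated Zfp949 transcripts against the distance in kb from the first annotated base of the gene, with coding parts in green, other exons in grey and introns as lines; "listed" marks the transcripts with an entry in the quantification tables. The coding part of the short transcript covers the first 2 coding exons of the long transcript and stops before the large last exon.

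The 2 listed sequences that received reads cannot be told apart over the length of the shorter one. They are shown because the account of transcript usage turns on them. Capitals mark base 143, the last base of the short transcript, which is the first base after the 127-base exon: in the short transcript it is read from the intron and in the long transcript from the next exon, and the letter is the same. Both are printed 5′ to 3′ from the start codon, the second as far as base 173.

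Short transcript: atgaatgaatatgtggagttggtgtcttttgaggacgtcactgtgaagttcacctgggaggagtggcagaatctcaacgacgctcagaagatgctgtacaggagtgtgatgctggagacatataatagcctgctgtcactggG

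Long transcript: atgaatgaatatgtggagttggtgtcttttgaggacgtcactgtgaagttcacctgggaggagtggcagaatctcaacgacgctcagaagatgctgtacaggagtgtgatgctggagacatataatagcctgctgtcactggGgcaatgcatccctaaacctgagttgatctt

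All 143 bases of the short transcript equal the first 143 bases of the long transcript, with 0 differences. Of its 113 words of 31 bases, 0 are missing from the long transcript, so no base within it sets the shorter transcript apart. The annotated coding part of the shorter transcript stops before the DNA-binding part. Its coding end is flagged as incomplete, so what follows in the RNA is not known. The translated long transcript holds 11 matches to the C2H2 finger pattern, all 11 in the last coding exon. The first of them starts at coding base 892, and the annotated part of the short transcript holds 0. Sequence shared with other genes was looked for in the same way. Of the 1782 words of 31 bases in the long transcript, 0 occur in an annotated transcript of another gene, on either strand, and 0 annotated genes overlap Zfp949 on the opposite strand. The 1 gene that overlaps it on the same strand, Gm26461, is an RNA gene inside it, annotated as misc_RNA.

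The libraries held 25817975 to 37894237 estimated reads each. Casein, Wap and other secretory genes marked every library as mammary gland, with a summed level of the 7 secretory markers between 341437 and 594779 CPM (reads scaled to library size, with TMM factors). Tsc1, the targeted gene, was at 8.31 to 11.9 CPM over Knockout and 9.55 to 12.2 CPM over Wild-Type, overlapping ranges (log2 fold -0.09 ± 0.11 SE, edgeR adjusted p = 0.772). Only fat cells of the gland are targeted, and counts over the whole gene do not read the deleted part alone. Of 12716 genes tested with edgeR, 7 passed an adjusted p-value of 0.05, which is 0.055% of them, and 6 of these, or 0.0472%, were higher in knockout.

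The long transcript took nearly all reads of the gene and had higher values in every knockout library. Its estimated reads were 571, 576, 441, 484, 395 and 563 in Knockout 1 to 6. They were 251, 190, 287, 259 and 192 in Wild-Type 1 to 5. The lowest knockout library, Knockout 5, lay above the highest wild-type library, Wild-Type 3, although Knockout 5 was among the less deeply sequenced and Wild-Type 3 was the deepest.

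Scaled to depth, the whole gene was at 12.9, 19.8, 14.7, 14.7, 14.6 and 16.2 CPM in Knockout 1 to 6. The wild-type libraries were at 9.0002, 7.94, 9.11, 8.05 and 6.84 CPM. Knockout 2 was the highest and Knockout 1 the lowest of its group, and the groups did not overlap. The means were 15.5 ± 2.36 CPM (Knockout, SD, n = 6) and 8.19 ± 0.922 CPM (Wild-Type, SD, n = 5), a ratio of 1.89 and a log2 fold of 0.92 ± 0.12 (SE) in edgeR. For 100 of the 12716 genes, 0.786%, knockout libraries lay wholly above wild-type libraries in this way, and for 1.32% the genotypes did not overlap in either direction.

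TPM divides reads by effective length and scales them to the same total in each library, and is the scale on which transcripts of different length are compared. On it the long transcript was at 4.61, 6.05, 3.91, 3.73, 3.99 and 4.68 in Knockout 1 to 6. In Wild-Type 1 to 5 it was at 2.04, 1.94, 1.99, 2.38 and 1.80. The wild-type libraries lay within a narrow band, all below the lowest knockout library. Means were 4.49 TPM ± 0.853 (SD, n = 6) and 2.03 TPM ± 0.217 (SD, n = 5), a ratio of 2.21. These TPM values carry no TMM scaling. The log2 ratio of the means was 1.15, and 0.95 when TPM was rescaled with TMM factors. Of the 18620 transcripts with enough reads to be tested, 1.41% had knockout TPM values wholly above wild-type values.

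**Figure D2:**
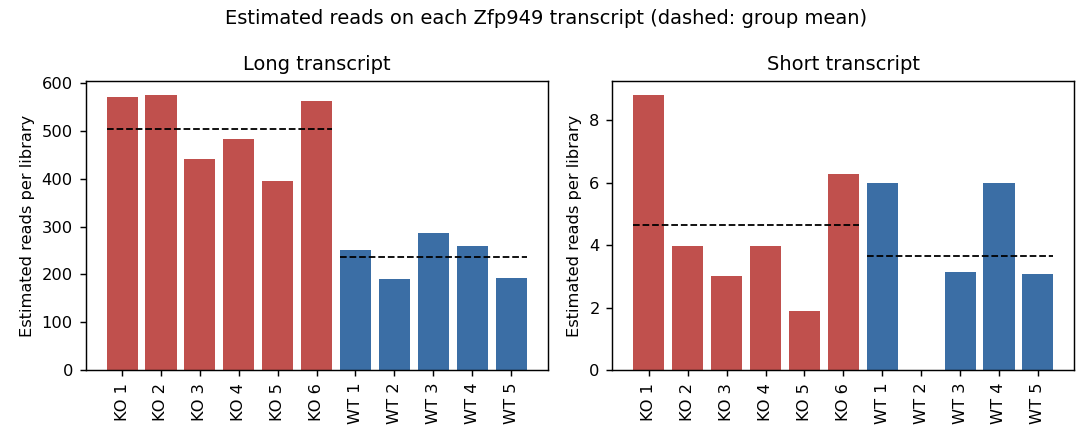
Estimated reads per library on the long transcript (left) and the short transcript (right), each with its own axis from 0; red bars are the 6 Knockout (KO) and blue bars the 5 Wild-Type (WT) libraries, and dashed lines are group means. The long transcript lies between 395 and 576 reads in knockout and between 190 and 287 in wild type, while the short transcript has at most 8.82 reads in any library.

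The short transcript rested on a handful of reads. It was assigned 8.82, 3.98, 3.00, 3.99, 1.90 and 6.27 reads in Knockout 1 to 6. In Wild-Type 1 to 5 it was assigned 6.00, 0, 3.13, 6.00 and 3.08 reads. High and low values occurred in both genotypes, and the groups overlapped. The means were 4.66 reads ± 2.50 (SD, n = 6) over Knockout against 3.64 reads ± 2.50 (SD, n = 5) over Wild-Type. Summed over libraries these were 28 reads in knockout, with an exact 95% Poisson interval of 18.6 to 40.5, and 18 in wild type, with an interval of 10.7 to 28.4. Divided by all reads of the libraries, that is 0.149 (0.0992 to 0.216) and 0.115 (0.0679 to 0.181) CPM before TMM scaling. Such intervals, and the limit that a count of 0 allows, cover counting error only. They cover neither the spread between mice nor the division of shared reads between the transcripts, which the quantifier estimates. The third listed transcript, ENSMUST00000161232, had 0 reads in all libraries, which at its listed length of 10 bases says nothing about its RNA.

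The short transcript held 0.880% ± 0.375 of the gene's reads over Knockout (SD, n = 6) against 1.45% ± 0.962 over Wild-Type (SD, n = 5). The share ran from 0.479% to 1.52% in knockout and from 0% to 2.33% in wild type, and the 2 ranges overlapped. Reads of the gene summed to a whole number within 0.01 in 11 of 11 libraries, whereas those of the short transcript did so in 4 of 11.

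On the TPM scale reads are divided by the effective length, the number of positions from which a fragment could have come. It was 5 bases for the short transcript in every library and between 1241 and 1298 bases for the long transcript. A read on the short transcript was therefore worth between 1.80 and 2.71 TPM, and one on the long transcript between 0.00695 and 0.0105 TPM. The ratio of the 2 was between 248 and 260.

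The short transcript was listed at 18.5, 10.8, 6.63, 7.99, 4.88 and 13.2 TPM in Knockout 1 to 6. In Wild-Type 1 to 5 it was listed at 12.3, 0, 5.63, 13.8 and 7.17 TPM. In all libraries but Wild-Type 2 it stood above the long transcript, and the groups overlapped. The 6 reads of Wild-Type 4 allow 5.07 to 30.04 TPM (exact 95% Poisson interval), which is wider than the spread between the libraries. The 0 reads of Wild-Type 2 allow up to 7.72 TPM, the value of 3 reads, which is above the 7.17 TPM of Wild-Type 5.

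As a share of the gene's TPM, the short transcript held 80.03%, 64.1%, 62.9%, 68.1%, 55.1% and 73.9% in Knockout 1 to 6. It held 85.7%, 0%, 73.8%, 85.3% and 79.9% in Wild-Type 1 to 5. Wild-Type 2 stood apart, and the other wild-type libraries lay in the upper part of the knockout range or above it. The means were 67.4% ± 8.78 (SD, n = 6) and 65.0% ± 36.6 (SD, n = 5), a difference of 2.40 percentage points. Without Wild-Type 2 the wild-type mean was 81.2% ± 5.57 (SD) and the difference -13.8 percentage points. Without Knockout 1 it was -0.13 percentage points, so that its direction rests on single libraries. The 0 reads of Wild-Type 2 allow a share of up to 79.95%.

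The gene total in TPM adds both transcripts. It was 23.1, 16.8, 10.5, 11.7, 8.87 and 17.9 in Knockout 1 to 6. In Wild-Type 1 to 5 it was 14.3, 1.94, 7.62, 16.2 and 8.97. The groups overlapped: 3 of the 6 knockout libraries lay above the highest wild-type library, and 2 of the 5 wild-type libraries lay below the lowest knockout library. Means were 14.8 TPM ± 5.39 (SD, n = 6) and 9.81 TPM ± 5.67 (SD, n = 5), a log2 ratio of 0.60. Without Wild-Type 2 the wild-type mean was 11.8 TPM ± 4.13 (SD) and the log2 ratio 0.33. Over all libraries, with TPM rescaled by TMM factors, the log2 ratio was 0.39.

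**Figure D3:**
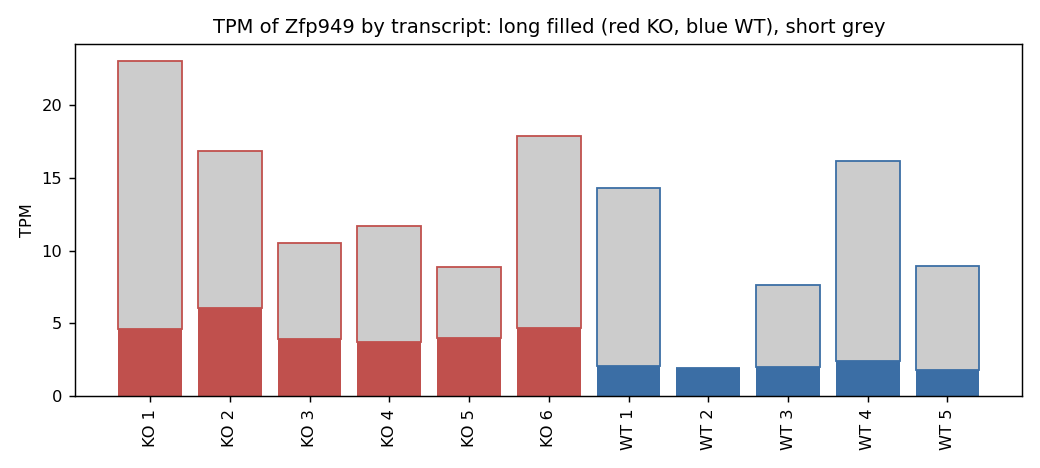
TPM of Zfp949 in each library, with the long transcript as the filled lower part (red, Knockout; blue, Wild-Type) and the short transcript as the grey upper part. The filled part lies between 3.73 and 6.05 TPM in knockout and between 1.80 and 2.38 in wild type, whereas the grey part runs from 0 to 18.5 TPM and overlaps between the genotypes.

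The mean effective length of the gene, weighted by TPM, carries the same few reads into corrections for transcript length. It was 421 bases ± 110 (SD, n = 6) over Knockout against 446 bases ± 461 (SD, n = 5) over Wild-Type. Wild-Type 2, with 0 reads on the short transcript, was at 1263 bases, and the other wild-type libraries were between 184 and 342 bases. Entered into edgeR as an offset, this length took the log2 fold of Zfp949 from 0.92 to 0.37. When transcripts with an effective length under 50 bases were left out of the length, it was 0.90. That second setting was chosen after the values were seen.

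The authors' deposited table of normalized values gave Zfp949 as 561, 482, 360, 409, 291 and 557 in Knockout 1 to 6. It gave 563, 71.2, 311, 486 and 307 in Wild-Type 1 to 5. In the authors' deposited table the genotypes overlap, the highest value of all is Wild-Type 1, and Wild-Type 2 is the lowest. The authors' deposited table gives a log2 ratio of group means of 0.35. Over the 11 libraries the values of the authors' deposited table had a Pearson correlation of 0.93 with the TPM of the gene, 0.93 with that of the short transcript, 0.45 with that of the long transcript and 0.36 with the gene's CPM, a description of libraries that share the same reads.

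**Figure D4:**
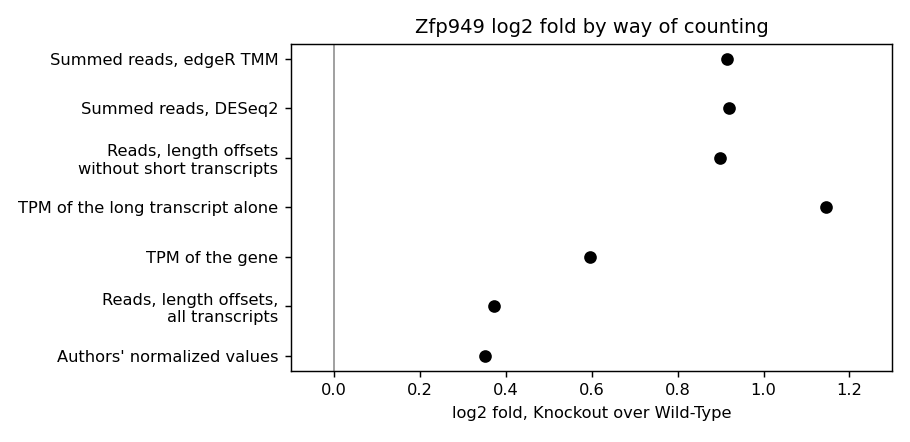
Log2 fold of Zfp949, Knockout over Wild-Type, under 7 ways of counting, 1 point each with no error bar. Values from summed reads, from length offsets without short transcripts and from the long transcript alone lie between 0.90 and 1.15, and gene TPM, length offsets over all transcripts and the authors' deposited table lie between 0.35 and 0.60. The TPM points carry no TMM scaling. With TMM factors the TPM of the long transcript gave 0.95 and that of the gene 0.39.

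Transcript usage could be tested for 3898 genes with at least 2 transcripts above the count filter. Of these, 2 were called by edgeR's diffSpliceDGE at an adjusted p-value of 0.05, or 0.0513%, 32 had an unadjusted p-value under 0.05, and limma's diffSplice called 1. Zfp949 was not among the genes tested, because the short transcript and ENSMUST00000161232 fell below the filter.

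Other zinc finger genes give the setting in which Zfp949 is expressed. Per length and without short transcripts, Zfp949 ranked 33 in knockout and 67 in wild-type libraries by mean TPM among 305 tested Zfp genes, itself and the 304 others that list a transcript of at least 50 bases effective length. The median of the others was 0.853 and 0.682 TPM. With the short transcript included it ranked 4 and 8. None of the 305 other tested genes named Zfp and a number, out of 360 listed, passed the threshold in edgeR (0.055% of all genes did); 22 had an unadjusted p-value under 0.05, 12 higher and 10 lower, or 7.21% against 12.4% of all genes. Their median log2 fold was 0.02, beside -0.01 for all genes. DESeq2 called 1 of them, Zfp28, and 1.17% of the 12450 genes with a DESeq2 adjusted p-value.

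Zfp28 had the smallest p-value among the lower genes. It was at 4.91 ± 0.806 CPM over Knockout (SD, n = 6) against 8.11 ± 1.68 CPM over Wild-Type (SD, n = 5) (log2 fold -0.73 ± 0.15 SE, edgeR adjusted p = 0.128, DESeq2 adjusted p = 0.00450). Its ranges, 4.02 to 6.11 CPM over Knockout and 6.67 to 10.9 CPM over Wild-Type, did not overlap, as for 1.32% of all genes. Zfp28 was the 1 gene without overlap among the 305 other tested Zfp genes. With transcript length offsets its log2 fold was -0.47 (edgeR adjusted p = 0.485), and with short transcripts left out of the length it was -0.72 (edgeR adjusted p = 0.172). Zfp775 had a log2 fold of -0.67 ± 0.20 (edgeR adjusted p = 0.270) and Zfp661 one of -0.54 ± 0.18 (edgeR adjusted p = 0.296). Among those with higher values the smallest p-values belonged to Zfp445, a KRAB zinc finger gene known for guarding imprinted regions, Zfp568, which silences a placental transcript of Igf2, and Zfp868. Zfp445 was at 14.5 ± 2.33 CPM over Knockout (SD, n = 6) against 10.1 ± 1.98 CPM over Wild-Type (SD, n = 5) (log2 fold 0.52 ± 0.15, edgeR adjusted p = 0.269). Zfp568 and Zfp868 had log2 folds of 0.62 ± 0.18 and 0.72 ± 0.21 (edgeR adjusted p = 0.270 and 0.274). Zfp868 passed the threshold without Wild-Type 5 (log2 fold 1.01, edgeR adjusted p = 0.0155), a fit that called 13 genes in all. It passed under no other alternative, with adjusted p-values from 0.069 (DESeq2) to 0.565 (edgeR with the replicate block).

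The genes through which KRAB proteins act on chromatin did not pass the test. None of the 12 corepressor genes tested did so in edgeR (0.055% of all genes did) or in DESeq2 (1.17%), and 1 had an unadjusted p-value under 0.05, or 8.33% against 12.4% of all genes. Trim28, the corepressor that KRAB domains bind, was at 63.7 ± 3.96 CPM over Knockout (SD, n = 6) against 64.1 ± 1.22 CPM over Wild-Type (SD, n = 5), a log2 fold of -0.01 ± 0.06 (SE). Mta1, a subunit of the NuRD remodelling complex, had the smallest p-value, at 19.8 ± 1.10 CPM (Knockout, SD, n = 6) and 22.8 ± 1.88 CPM (Wild-Type, SD, n = 5), a log2 fold of -0.21 ± 0.07 (SE, edgeR adjusted p = 0.313). Its ranges, 17.8 to 20.998 CPM over Knockout and 21.024 to 25.7 CPM over Wild-Type, did not overlap, as for 1.32% of all genes.

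Genes beside Zfp949 on chromosome 9 were compared to see whether the difference extended along the chromosome. Within 2 Mb of it 32 genes are listed and 20 were tested. None of the 20 passed the threshold in edgeR (0.055% of all genes did), 5 had an unadjusted p-value under 0.05, 2 higher and 3 lower, or 25% against 12.4% of all genes, and DESeq2 called 1 (1.17% of the 12450 genes with a DESeq2 adjusted p-value). Their median log2 fold was -0.09. Over the whole chromosome, 1 of 705 other tested genes passed, lower in knockout, and 95, or 13.5%, had an unadjusted p-value under 0.05.

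The nearest tested gene before Zfp949 was Syncrip, which encodes an RNA-binding protein, at a gap of 65.4 kb. Its knockout libraries ran from 31.01 to 37.8 CPM and its wild-type libraries from 28.1 to 34.7 CPM, overlapping ranges with a log2 fold of 0.15 ± 0.08 (SE, edgeR adjusted p = 0.450). Gm20537 and Snx14 came next, with log2 folds of -0.37 ± 0.31 and -0.08 ± 0.33 (edgeR adjusted p = 0.651 and 0.943). Gm20537 overlaps both Syncrip and Snx14 on their strand, so its few reads are uncertain. Without Wild-Type 2 its log2 fold was -0.16, and with transcript length offsets it was -0.22. That of Syncrip was 0.09 with such offsets. The nearest tested gene after Zfp949 was Mthfsl, at a gap of 118 kb, with 4.85 to 7.37 CPM over Knockout against 6.51 to 8.29 CPM over Wild-Type (log2 fold -0.21 ± 0.12 SE, edgeR adjusted p = 0.476). Bcl2a1d and Bcl2a1a, near-identical copies of an anti-apoptotic gene whose reads may be split between copies, had log2 folds of -0.84 ± 0.37 and 0.18 ± 0.36 (edgeR adjusted p = 0.379 and 0.864).

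Cep162, which encodes a centriole protein needed for cilia, was the 1 of 20 tested neighbours whose genotypes did not overlap, against 1.32% of all genes (0.786% higher in knockout), and is named after its values were seen. It lies 1292 kb before Zfp949, at chr9:87189577-87255536. It was at 8.44, 7.54, 7.83, 8.21, 5.91 and 8.22 CPM in Knockout 1 to 6. In Wild-Type 1 to 5 it was at 5.53, 5.56, 5.65, 5.77 and 5.33 CPM. The wild-type values were close together, and Knockout 5 lay just above them. The log2 fold was 0.47 ± 0.10 (SE), with an adjusted p-value of 0.137 in edgeR and of 0.00586 in DESeq2. Without Knockout 5, the lowest knockout library, it was 0.54 (edgeR adjusted p = 0.0358). Leaving out any other library gave edgeR adjusted p-values from 0.144 to 0.317, and the replicate block gave 0.565.

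**Figure D5:**
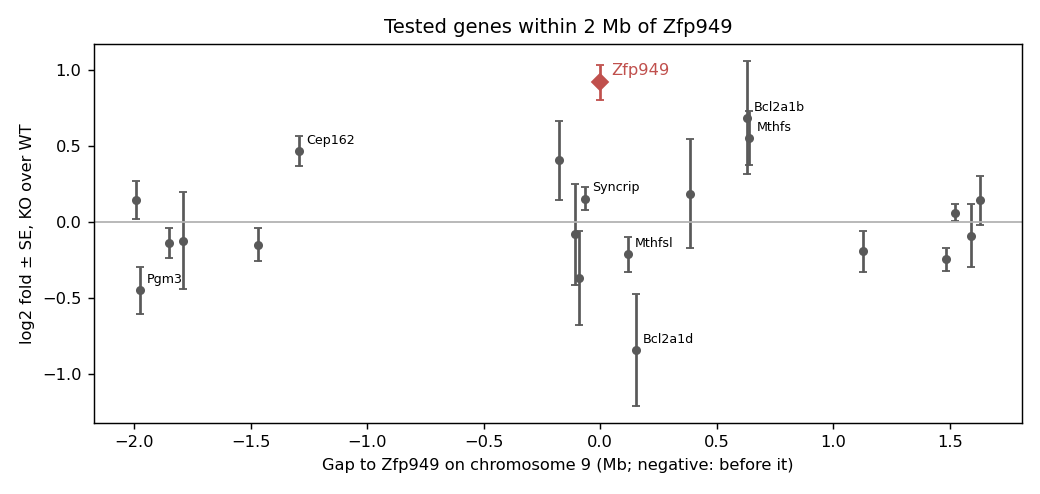
Log2 fold with its SE (n = 6 Knockout, 5 Wild-Type) of the 20 tested genes within 2 Mb of Zfp949 against the gap to it on chromosome 9 in Mb; the red diamond is Zfp949 at 0.92. The nearest tested genes on either side, Syncrip at 0.15 and Mthfsl at -0.21, lie close to 0, and 9 of the 20 genes have values above 0.

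Among the 12715 other tested genes, the 5 whose log2 CPM followed Zfp949 most closely over the 11 libraries were Twist1 (Pearson r = 0.92), Homer1 (0.91), Map2k4 (0.91), Medag (0.87) and Slc16a11 (0.87), where the median over all genes was -0.02. These libraries share the genotype difference. With each genotype centred on its own mean the values were 0.72, 0.73, 0.74, 0.53 and 0.53. The 5 were picked as the highest of 12715, so their height is partly given by the choice. Mean levels over Knockout and Wild-Type were low for Twist1 (0.714 and 0.422 CPM), Medag (1.02 and 0.446 CPM) and Slc16a11 (0.665 and 0.443 CPM). Twist1 encodes a transcription factor of mesenchymal cells, Map2k4 a kinase that activates JNK, and Medag a protein of fat cell differentiation. None of the 5 is on chromosome 9.

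Cell type markers are given with their counts in each direction. Among all genes 12.4% had an unadjusted p-value under 0.05 and 0.055% were called in edgeR, and 0 markers of the 10 lists were called. Of 10 adipocyte markers 8 had higher values in knockout, 5 with an unadjusted p-value under 0.05. Their summed level was 1454 to 1941 CPM over Knockout against 1047 to 1483 CPM over Wild-Type. Values were also higher for all 5 luminal epithelial markers, 2 of them at an unadjusted p-value under 0.05, with sums of 555 to 875 and 404 to 778 CPM. They were higher for all 6 fibroblast markers, 2 of them at that threshold, with sums of 273 to 653 and 206 to 461 CPM. They were higher for all 6 myoepithelial markers, 1 of them at that threshold, with sums of 492 to 686 and 394 to 712 CPM. All 6 skeletal muscle markers had higher values, 0 of them at that threshold, with sums of 2.38 to 2040 and 1.41 to 172 CPM. Values were lower for all 7 secretory markers, 0 of them at that threshold, with sums of 341437 to 478187 and 422943 to 594779 CPM. Of 6 B cell markers 4 were tested, all lower and all 4 at that threshold, with sums of 0.808 to 13.8 and 1.93 to 69.8 CPM. Of 6 T cell markers 5 were tested, all lower and 1 at that threshold, with sums of 1.09 to 6.42 and 0.876 to 21.8 CPM. Of the 5 macrophage markers 2 were higher and 3 lower, 1 at that threshold, with sums of 30.4 to 63.2 and 43.8 to 78.2 CPM. Of the 5 endothelial markers 4 were higher and 1 lower, 0 at that threshold, with sums of 64.9 to 100.1 and 66.0 to 99.7 CPM. The summed levels overlapped between genotypes in all 10 lists and 0 markers were at 0 reads in all libraries. Over the 11 libraries, which share the genotype difference, the Pearson correlation of a list's summed level (log2) with the log2 CPM of Zfp949 was 0.68 for adipocyte and 0.68 for luminal markers, 0.43 for fibroblast and 0.43 for myoepithelial markers, 0.26 for endothelial and 0.05 for skeletal muscle markers. It was -0.74 for B cell, -0.63 for T cell, -0.51 for macrophage and -0.49 for secretory markers. These values are a description, and the part of the markers in the values of Zfp949 was not tested.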

How the data were processed

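RNA was sequenced from 6 Knockout and 5 Wild-Type glands, grouped by sample title. Per the submitters' processing notes the tools were Salmon 1.3.0 and DESeq2 1.28.1 and the build GRCm38.p6; index and options are not given in the sources used here. Per the file headers, each deposited table lists for every transcript its length, effective length, TPM and estimated count. The authors also deposited a gene table of normalized signal values, named as DESeq2 counts. Its normalization is not described further.

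Transcripts were assigned to genes by identifier with GENCODE M21 (57452 of 58204 matched; the rest held at most 0.265% of a library's reads). The estimated counts of a gene's transcripts were added and rounded to whole numbers. Coding sequences and exons were taken from the same annotation. Genes passing filterByExpr (12716) were tested with edgeR 4.0.16 (TMM, robust quasi-likelihood F test, genotype only, Benjamini-Hochberg, threshold 0.05). CPM uses TMM scaling. Transcript usage was tested with edgeR's diffSpliceDGE (gene-level Simes p-value). Both procedures were also run on simulated data with larger changes than that of Zfp949, and for usage in genes with more reads than its short transcript. The outcome is not given here and does not bear on smaller changes or on few reads. Alternatives used DESeq2 1.42.0, limma 3.58.1, no filter, length offsets, a replicate block, and leaving out each library. A count of 0 was taken to allow 3 reads.

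Named were Zfp949 and its transcripts, the 3 nearest tested genes on each side, any called within 2 Mb, in each direction the 3 Zfp genes of smallest p-value, Trim28 and the corepressor gene with the smallest p-value, and the 5 genes most like Zfp949. The gene, lists and rules were chosen with earlier results of these data known. Over the 25 combinations of libraries of 1 genotype, chi-square per degree of freedom was at least 20.8, so none was counted as a repeat of another.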

Additional observations from a re-analysis of the deposited data

Results flagged for a closer look

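Each of 58 sets of values of 1 genotype was searched for a library apart from the rest. The search gave 6, and about 2.9 would come by chance if the sets were independent. Many of them are measures of Zfp949 from the same reads, so they are not. In Wild-Type 2, the short Zfp949 transcript held 0% of the gene's TPM, against 73.8% to 85.7% in the other wild-type libraries, and the mean effective length of the gene was 1263 bases, against 184 to 342. Wild-Type 2 had 0 reads on the short Zfp949 transcript, and the other wild-type libraries had between 3.08 and 6.00. The flags on share and length both rest on those 0 reads, and the read counts themselves were not flagged. Trim28 was at 62.0 CPM in Wild-Type 2, against 64.1 to 64.9 CPM in the rest of its group. In Knockout 2, Zfp445 was at 10.03 CPM, against 14.2 to 16.4 CPM, and Twist1 at 1.02 CPM, against 0.597 to 0.722 CPM. Zfp775 was at 2.35 CPM in Knockout 5, against 1.25 to 1.62 CPM.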

How the results depend on the processing

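The log2 fold of Zfp949 in reads ran from 0.84 to 0.97 when each library was left out and was 0.92 in DESeq2. It was 0.37 with transcript length offsets and 0.35 in the authors' deposited table. Leaving out each library moved the log2 ratio of gene TPM from 0.33 to 0.85, the share difference of the short Zfp949 transcript from -13.8 to 7.597 percentage points, and the difference in mean effective length from -91.0 to 179 bases, which was above 0 without Wild-Type 2 or Knockout 1. As a share of reads the difference for the short Zfp949 transcript was -0.57 percentage points. The difference in mean effective length was -25.4 bases over all libraries. It was 25.8 bases when weighted by reads, 18.9 bases without short transcripts and -40.1 bases with listed lengths. The number of genes called went from 7 to 146 in DESeq2 and to 0 with the replicate block, and it ran from 0 to 28 over the libraries left out: 0 without Knockout 3 or Knockout 6, 2 without Knockout 1 or Wild-Type 3, 13 without Wild-Type 1 or Wild-Type 5, 14 without Wild-Type 4 and 28 without Knockout 2. DESeq2 called 1 neighbour and 1 Zfp gene, and leaving out libraries called between 0 and 1 of each and 0 corepressor genes. Genes called for usage were 1 in limma and between 1 and 8 over the libraries left out. Same-numbered libraries did not pair: their 5 correlations ran from -0.22 to 0.19, and 0 of 5 wild-type libraries were closest to their own number. The replicate block gave a log2 fold of 0.89 for Zfp949. Knockout 6 has no same-numbered Wild-Type library, so the block also takes it out of the genotype comparison, and without Knockout 6 alone 0 genes were called too. The cause of these shifts was not tested beyond the lengths shown above. Of 238 values of 14 named genes under alternatives, 7 changed sign, none past the threshold: Trim28 reached 0.0058 with the replicate block and ran from -0.035 to 0.014 without single libraries, Snx14 from -0.25 to 0.22 and Bcl2a1a from -0.057 to 0.34. The short Zfp949 transcript had at most 8.82 reads in a library.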

Other observations

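Short listed transcripts touched other genes in the same tables. Of the 12716 tested genes, 3342 list a transcript with an effective length under 50 bases. In 266 genes, or 2.09% of the 12716, such transcripts held at least 50% of the gene's TPM on at most 5% of its reads, averaged over the 11 libraries. Zfp949 is 1 of these genes, and 19 of the 305 other tested Zfp genes are among them. With transcript length offsets the log2 fold change of 292 genes, or 2.3%, moved by over 0.5, and with short transcripts left out of the length that number was 88. Of the 292 genes, 77 had the pattern just described. These counts were chosen after the values of Zfp949 were seen.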
